A study of Mus musculus with 2 samples.

Results

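The sequences described are the small RNAs of 26 to 28 nt that begin with U in mouse testis. They are the distinct sequences of those lengths whose first base is T in the deposited DNA letters and that had at least 100 reads summed over 2 deposited tables. There were 28062 of them among 12016007 distinct sequences. The members were chosen by length, first base and read number, so those values are given as a description and support nothing. The study sequenced small RNA from testes of Stambp-ps1-/- and Stambp-ps1+/- mice on a C57BL/6 background at 23 dpp (days post partum), with 1 library each. Total RNA was separated on a gel, RNA of 15 to 40 nt was cut out, and directional libraries were made. The sources used here do not say how many mice gave each library or what kind of allele Stambp-ps1 is. One table is named KO and the other het, but both are listed under the Stambp-ps1-/- sample, so the tables are called KO-named and het-named and are not read as genotypes.

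PIWI-interacting RNAs (piRNAs) are germ-line small RNAs that are cut from long single-stranded precursors and loaded into PIWI proteins. The 5′ end is usually a U, which the PIWI protein's pocket favours, and the 3′ end is trimmed and then methylated. In mouse testis, shorter piRNAs are typical of the protein MILI (Piwil2) and longer ones of MIWI (Piwil1), and most piRNAs of meiotic cells come from long noncoding loci called pachytene clusters. The libraries were not made from an immunoprecipitated PIWI protein, so no member can be assigned to one.

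The most-read members of 9 of the 10 annotated genes with most member reads, those that are noncoding, show what these molecules look like. Capitals mark the first base and the last 3 bases, which are the ends made by precursor cleavage and trimming; positions are on GRCm38 with GENCODE M21 genes, and T stands for U.
Gm49794, chr17:27355157-27355183, plus strand: TaacagtccactctggcagaagctGAC
Gm21269, chr7:73817221-73817247, plus strand: TtggagattgaatttttgaaaaagCCT
Gm10505, chr17:27344124-27344150, plus strand: TaggatgtgagaaggctcaagacaCCC
1700001L05Rik, chr15:83354908-83354935, minus strand: TaattctagttctcacacccatggtACC
Gm10619, chr7:73809739-73809766, minus strand: TaactctaaatggactttggccccaGGT
1700029M20Rik, chr4:135629837-135629863, plus strand: TgactcaagaattatcggccaacaTGT
D130017N08Rik, chr5:143758617-143758643, plus strand: TaaacaaatctcctaagatccaagGCT
CT025671.4, antisense, chr17:66196087-66196114, minus strand: TacatacctggtagcactgaattggACC
Gm2762, chr13:53400596-53400622, plus strand: TgaatgacagagactgacaaggagATC

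These 9 ranged from the Gm21269 member, with 16508 reads in the KO-named table, against 16729 in the het-named table, to the D130017N08Rik member, with 1632 and 1640 reads in the same order of tables. Each has 1 place in the annotated transcripts.

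The members held 13.4% of the reads in the KO-named table (54384974 reads) and 11.8% in the het-named table (62773871 reads). The exact binomial 95% intervals were 13.43% to 13.45% and 11.80% to 11.81%. Such intervals cover counting error only, since PCR copies were not told apart and no library had a replicate. U was the first base of 81.1% of all 26 to 28 nt reads in the KO-named table, against 75.3% in the het-named table. Members were 1.08% of the distinct U-start sequences of these lengths and carried 64.7% of their reads in the KO-named table, against 65.01% in the het-named table. As a check of the tissue, all 7 germ-line miRNA hairpins searched, such as Mir34c and Mir449a, were detected, and the liver hairpin Mir122 was not, among sequences with at least 10 reads. Blood hairpins summed to 62.5 reads per 1000000 reads of the table (RPM) in the KO-named table, against 42.5 RPM in the het-named table, beside 24244 and 22273 RPM for the germ-line hairpins in the same order.

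Reads were concentrated on few members. The median member had 212.5 reads over both tables and the highest had 69084, of which 32670 were in the KO-named table and the other 36414 in the het-named table. The 10 most-read members held 2.77% of member reads, the top 100 held 11.7% and the top 1000 held 36.9%. The top 1%, which is 281 sequences, held 20.4% of member reads, against 22.7% for the top 1% of U-start sequences of 29 to 31 nt and 21.8% for 26 to 28 nt sequences with another first base. The top 10 held 3.02% and 9.25% in those sets, of which the second has 6322 sequences in all. In the members, 2203 sequences (7.85%) were enough for 50% of the reads. Much the same sequences led in both tables, with 89 shared among the 100 highest of each. Every member was present in both tables, at 6 reads or more in the KO-named table and 27 or more in the het-named table.

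At the read minimum, 231 sequences had exactly 100 reads and 237 had 99. The first had a median of 0.919 RPM in the KO-named table, against 0.797 RPM in the het-named table, and the second had 0.901 and 0.797 RPM. The rule therefore divides a continuous range, and 13133 members had fewer than 200 reads.

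Of the 10 most-read members, 3 matched an annotated transcript. They were the Gm49794 and Gm21269 sequences above and a form of the second that begins 1 nt upstream, TttggagattgaatttttgaaaaagCCT at chr7:73817220-73817247, with 15412 reads in the KO-named table, against 17560 in the het-named table. The 7 others had no exact match, so their place in the genome is unknown here. Among the 10, 7 were 27 nt long, 6 ended in CU or CC, and the least read had 29480 reads.

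Many members were forms of 1 start that differed in length. There were 8525 members of 26 nt, 10186 of 27 nt and 9351 of 28 nt, and the 27 nt members held 38.6% of member reads in the KO-named table, against 38.3% in the het-named table. Grouping members by their first 20 bases gave 17536 starts, of which 10850 had 1 length, 4355 had 2 and 2331 had all 3. Those with all 3 lengths held 53.7% of member reads. Longer forms were common too, since 9792 starts (55.8% of the members' starts and 39.8% of the 24630 starts of 29 to 31 nt sequences) occurred among U-start sequences of 29 to 31 nt with at least 100 reads. These shared starts held 80.7% of member reads, and at the median shared start 42.9% of the reads were 26 to 28 nt long.

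Near the 5′ end the members were rich in A. Base 2 was A in 42.7% of member reads, G in 31.6%, U in 15.6% and C in 10.2%, and base 3 was A in 38.3%. Base 5 was A in 46.4% of reads, the highest share of A between bases 4 and 20, where the lowest was 25.6% at base 17. C was at its lowest in the same stretch at base 5 too, with 12.2%. The share of A at base 5 was 48.8% in U-start reads of 29 to 31 nt and 35.01% in 26 to 28 nt reads with another first base, all at the same read minimum. It was 38.5% in U-start reads of 26 to 28 nt under that minimum.

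The A at bases 2 and 5 went with read number. Counting each sequence once, A at base 5 was found in 41.4% of members with fewer than 200 reads, 43.4% of those from 200 to below 1000 and 47.6% of those with 1000 or more. The same shares for base 2 were 36.0%, 38.9% and 43.1%. Because sequences of different length can share a start, these are not independent molecules.

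Base 10 is of interest because slicing by one PIWI protein of a target paired to a U-start piRNA leaves a new 5′ end whose base 10 is A. A was at base 10 in 28.8% of member reads in the KO-named table (exact interval 28.80% to 28.87%) and in 29.1% in the het-named table (29.11% to 29.17%). This lay within the 25.6% to 46.4% that A took between bases 4 and 20. U-start reads of 29 to 31 nt had A at base 10 in 32.4%, and 26 to 28 nt reads with another first base in 30.5%. No excess of A at base 10 was therefore seen in the members beside these sets.

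The last base was most often C or U. C ended 38.7% of member reads, U 31.8%, G 14.9% and A 14.5%, with U at 32.004% in the KO-named table, against 31.589% in the het-named table. U-start reads of 29 to 31 nt had the order reversed, with U at 41.3% and C at 33.4%, while 26 to 28 nt reads with another first base ended in U in 24.7% and in C in 42.5%. Within the members, last-base U was 28.3% at 26 nt, 33.4% at 27 nt and 33.1% at 28 nt. The pair CU ended 17.5% of reads and CC 16.03%, and CCU, which ends the Gm21269 sequence above, was the last 3 bases of 9.23%. The last base but one was C in 37.4% of reads and A in 14.3%, and the fourth from the end was G in 37.98%.

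The base that follows a member in its precursor can be read only where the member matched a transcript. It was U for 27.7% of matched reads in the KO-named table, against 27.6% in the het-named table. The next 19 positions averaged 24.2% U, with a range of 20.5% to 28.5%, and 2 of them were above the first base. For U-start reads of 29 to 31 nt the share was 29.6% beside a mean of 26.8%. U next to the end was thus above the mean of the bases behind it and within their range for the members, and above both for the longer set, whose range ended at 29.4%. Another member began directly after the end for 100 of 4432 members with 1 place, and for 114 at the most frequent distance, 15 nt.

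Annotated transcripts accounted for a small share of the members. An exact match to GENCODE M21 transcripts, on either strand, was found for 5238 members (18.7%). They carried 17.2% of member reads in the KO-named table (17.18% to 17.23%) and 16.8% in the het-named table (16.80% to 16.86%). Of these, 4432 had 1 place and 443 had 5 or more. U-start sequences of 29 to 31 nt matched for 14.7% of reads in the KO-named table, against 14.5% in the het-named table. Introns, intergenic clusters and transposons outside transcripts were not searched.

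Long noncoding RNAs were the main annotated source. Noncoding genes other than the small RNA classes took 75.6% of matched member reads in the KO-named table, against 75.1% in the het-named table. Protein-coding genes in sense took 13.1% and 13.0%, and in antisense 3.71% and 3.85%, in the same order. Of the coding sense reads, 68.0% lay in 3′ UTRs, 8.92% in coding sequence and 2.84% in 5′ UTRs. Pseudogenes took 3.93% in the KO-named table, against 3.75% in the het-named table, miRNA entries 1.53% and 1.91%, and snoRNA or snRNA genes 1.38% and 1.17%. Ribosomal RNA took 0.561% and 0.947% of matched member reads, whereas among 26 to 28 nt reads with another first base it took 8.55% in the KO-named table, against 15.4% in the het-named table.

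A few loci stood out by their reads, in level per library and not per length. Gm49794 (chr17:27354111-27367492) held 614 members with 4617 RPM in the KO-named table, against 3784 RPM in the het-named table. Gm21269 (chr7:73816546-73838898) held 424 members with 2461 and 2191 RPM, Gm10505 (chr17:27325035-27344833) 307 members with 1900 and 1608 RPM, and 1700001L05Rik (chr15:83353847-83367282) 230 members with 1656 and 1431 RPM. Gm10505 and Gm49794 lie next to each other on the plus strand of chromosome 17, and Gm10619 (135 members; 730 and 640 RPM) lies next to Gm21269 on chromosome 7 on the opposite strand. The log2 ratio (KO-named over het-named) was 0.29 for Gm49794, 0.17 for Gm21269, 0.24 for Gm10505, 0.21 for 1700001L05Rik and 0.19 for Gm10619, close to one another.

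Coding genes contributed 1102 sense members from 873 starts. Among them Nemp1, which encodes a protein of the nuclear envelope, had 65 members with 377 RPM in the KO-named table, against 320 RPM in the het-named table, all within chr10:127694470-127700172 by their first position. 1700006A11Rik followed with 78 members, 257 and 211 RPM. After Lars2, described further on, came D10Wsu102e with 131 members, 133 and 112 RPM, and Tbl2 with 31 members, 128 and 111 RPM. On the antisense strand, Smyd5, which encodes a histone methyltransferase, had 3 members of 1 start with 82.0 RPM in the KO-named table, against 98.6 RPM in the het-named table (log2 -0.27). Antisense to Mif, a cytokine gene, there were 22 members with 71.7 and 65.04 RPM. Reads with several places were shared between them, so the values of D10Wsu102e, with 1 place for 9 of its 131 sense members, and of Mif, with 1 place for 1 of 22, are uncertain.

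The small RNA classes added single short stretches. Mir7217 (chr17:27355738-27355799), a miRNA entry inside Gm49794, had 9 members of 4 starts with 99.3 RPM in the KO-named table, against 137 RPM in the het-named table (log2 -0.47), while Gm49794 as a whole was at 0.29. Mir7234, which lies inside Gm21269, had 3 members with 12.1 and 10.6 RPM, and Mir7210 had 4 with 107 and 97.4 RPM. The mitochondrial reads came from mt-Tm, the methionine tRNA, with 2 members at 43.7 RPM in the KO-named table, against 34.4 RPM in the het-named table. Rny1, a Y RNA that binds the Ro protein, had 2 members with 3.97 and 4.35 RPM.

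Gene lists set these sources in order. Of 12 genes known from earlier results of these data as piRNA precursors, 10 had members and Gm18009 and Gm10069 had none. Together the 10 held 1673 members which, each counted in full whatever its number of places, had 10795 RPM in the KO-named table, against 9186 RPM in the het-named table. Of 17 mRNAs of the piRNA pathway itself, such as Piwil1, Piwil2 and Ddx4, 2 had any match. Those were Pnldc1, the nuclease that trims piRNA 3′ ends, and Tdrkh, its Tudor-domain partner, each with a shared total of under 2 reads from repeated sequence, so no reads can be ascribed to them. All 5 genes listed as sources other than piRNA precursors (Lars2, CT010467.1, Gm42418, AY036118 and Mir6236) had members, 110 in all, which counted in full had 263 RPM in the KO-named table, against 473 RPM in the het-named table.

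Small RNAs of opposite strands that overlap by 10 nt at their 5′ ends are the mark of reciprocal slicing, known as ping-pong. Among the 4432 members with 1 place, 180 (4.06%), holding 11.2% of the reads, had a sequence of 24 to 32 nt with at least 10 reads on the other strand at that overlap. Any other overlap from 1 to 20 nt had at most 47 members and 2.17% of the reads. Pairs from Gm21269 and Gm49794 are shown with the 10 paired bases in capitals, each read 5′ to 3′.
Gm21269 member, chr7:73817220-73817247, plus strand: TTTGGAGATTgaatttttgaaaaagcct
its partner, chr7:73817199-73817229, minus strand: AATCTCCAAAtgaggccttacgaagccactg
Gm21269 member, chr7:73817687-73817713, plus strand: TACCATGACTgtctgcttagaacggct
its partner, chr7:73817666-73817696, minus strand: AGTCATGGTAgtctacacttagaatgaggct
Gm49794 member, chr17:27358606-27358632, plus strand: TACCAGTTGGataatgcacttcctatt
its partner, chr17:27358587-27358615, minus strand: CCAACTGGTAgaacatgcacgcatttggt

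The partners were far less read than the members. The first member above had 32972 reads over both tables and its partner 131, of which 61 were in the KO-named table and the other 70 in the het-named table. The second had 11712 reads and its most-read partner 63, and the Gm49794 member had 29169 and its partner 17. Over all 180 members there were 100 partner starts with a median of 35.5 reads, and their reads amounted to 6.06% of those of the members. A at base 10 of a partner follows from the member's first U and is not a separate mark.

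Few loci gave most of these pairs. Gm21269 held 41.9% of the paired member reads, Gm49794 34.2% and Gm10505 10.5%. The 3 most-read paired members held 38.9% of these reads. The first of them, from Gm21269, had 33237 reads over both tables and its partner 13. Without Gm21269, 126 members and 7.46% of the reads had a partner at 10 nt, and the overlap of 10 nt was examined after the values were seen. Paired members had a median log2 ratio of 0.25 between the tables and the other 4252 members with 1 place 0.23.

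Between the tables, most members took a somewhat larger share of the KO-named library. The ratio is that of reads, with 0.5 added, per total reads of each table, and with 1 library per table it has no test. Summed over members it was 134419 RPM in the KO-named table, against 118039 RPM in the het-named table, a ratio of 1.14. The median log2 ratio was 0.22, with quartiles of -0.01 and 0.41, and 20745 members (73.9%) were above 0. It was 0.22 at 26 nt, 0.22 at 27 nt and 0.21 at 28 nt, and it was 0.20 in U-start sequences of 29 to 31 nt. Sequences of 26 to 28 nt with another first base had a median of -0.31, and all 116176 sequences with at least 100 reads 0.13.

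The direction depended on what the tables were scaled to. Scaled to reads of 24 to 32 nt the median was 0.13, and scaled to miRNA reads, which moved every ratio by 0.25, it was -0.03. The median of all sequences with at least 100 reads was 0.13, 0.04 and -0.12 on the 3 scales, and a change of scale moves both medians alike by construction.

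Few members differed 2-fold. At a log2 ratio of 1 or more there were 258 members, or 0.919%, beside a background of 0.89% of all sequences with at least 100 reads. At -1 or less there were 423 members, or 1.51%, beside 11.8% of all such sequences. Scaled to reads of 24 to 32 nt these counts were 159 (0.567%) and 527 (1.88%), beside 0.59% and 13.2% of all such sequences. Scaled to miRNA reads they were 71 (0.253%) and 717 (2.56%), beside 0.286% and 15.6%. On each scale the share of members at 1 or more was near that of all sequences, and the share at -1 or less was below it. Scaled to all reads, U-start sequences of 29 to 31 nt had 1.04% at 1 or more and 1.08% at -1 or less. A small share at -1 or less was thus not particular to the members. The spread was wider than counting alone gives, since the SD of the log2 ratio was 0.39 and the median counting error of a member 0.20. For the 2708 members with 1000 reads or more the SD was 0.32 and the counting error 0.07. Between forms of 1 start, the 28 nt minus 27 nt difference in log2 ratio had an SD of 0.32 over 4279 starts. That difference holds the counting error of both forms, which was not estimated for it, so no spread beyond counting is read from it.

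The ratio varied little among most sources. The 374 genes with at least 10 members had a median log2 ratio of 0.22, none reached 1 and 1, Lars2, was at -1 or less. Glo1 had the highest, 0.63, but on 34.1 shared reads in the KO-named table, against 25.2 in the het-named table. The precursor list had a median of 0.23 over its 1673 members, with 12 at 1 or more and 3 at -1 or less. The 110 members of the list of other sources had a median of -1.09, with none at 1 or more and 61 at -1 or less. For all members the shares at these folds were 0.919% and 1.51%, and for all sequences with at least 100 reads 0.89% and 11.8%. Both lists were chosen with earlier results of these data known. SnoRNA and snRNA members had a median of 0.50, with 34 members of 29 starts.

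Members lower in the KO-named table included ribosomal and Lars2 sequences. In the list of sources other than piRNA precursors, Lars2 stands beside the rRNA entry CT010467.1. It had 56 members with 96.6 RPM in the KO-named table, against 201 RPM in the het-named table (log2 -1.06). Its 39 members with 1 place all began within chr9:123461802-123462150, at the 3′ end of the gene. These values are not read as the level of the Lars2 mRNA, since the 1-place members cover only this stretch. On chromosome 17, CT010467.1, an rRNA entry, was covered on its antisense strand by 53 members with 110 RPM in the KO-named table, against 172 RPM in the het-named table (log2 -0.65). Gm42418 lies there on the plus strand, so 31 of the members are in sense to it. AY036118, on the minus strand, holds 26 in antisense, and all 3 entries share members. Sense and antisense refer here to the annotated strand of each entry, and the sequence shown is also in sense to Gm42418. It is the most-read member there at a log2 ratio of -1 or less, with the first base and the last 3 bases in capitals.
CT010467.1, antisense, chr17:39847257-39847282, plus strand: TtcggaactgaggccatgattaaGAG

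This sequence had 206 reads in the KO-named table, against 519 in the het-named table (log2 -1.12). The most-read Lars2 member at -1 or less with 1 place had 190 and 562 reads (log2 -1.36), and the Lars2 member of lowest ratio had 24 and 109 reads (log2 -1.95).

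Low ratios were unevenly spread over the annotated classes. Of the 63 rRNA members 27 (42.9%) were at -1 or less, of 1102 coding sense members 33 (2.99%), and of the 3414 members of other noncoding genes 9 (0.264%). The coding sense class includes Lars2 members, and the 56 members of that gene had a median log2 ratio of -1.12. The 22824 unmatched members had 350 (1.53%), which is near the 1.51% over all members. Of all sequences with at least 100 reads, 11.8% were at -1 or less. The 423 members came from 281 starts and 17.5% ended in U, against 31.98% of all members counted once each. The 5 lowest were unmatched, and the lowest had 8 reads in the KO-named table, against 178 in the het-named table (log2 -4.19).

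The ratio moved with base content. Members under 35% G or C had a median log2 ratio of 0.32, those from 35% to 45% had 0.25, from 45% to 55% 0.17, from 55% to 65% 0.09, and the 264 at 65% or more had -0.52. Of those 264, 57 (21.6%) were at -1 or less, beside 1.51% of all members and 11.8% of all sequences with at least 100 reads. Members at -1 or less had a median content of 51.9% and all members 44.4%. The part of base content in the ratio was not tested.

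Members that begin with UCUG were the group with the highest ratio. Of the 64 groups by first 4 bases, UCUG, with 505 members of 336 starts, had the highest median log2 ratio, 0.37, and members with other starts had 0.21. Among the UCUG members, 69 (13.7%) were at 1 or more, against 0.686% of the others and 0.89% of all sequences with at least 100 reads. These 69 made up 26.7% of all members at 1 or more. At -1 or less there were 9 (1.78%), against 1.502% of the others and 11.8% of all such sequences. UCUGA carried most of this, with a median of 0.46 and 63 of 317 at 1 or more. The close relatives UCUA, UCUC and UCUU had medians of 0.21, 0.18 and 0.27, and 6200 members with UCUG further in had 0.25. This group was singled out after its values were seen, and no test was made.

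The UCUG members that matched a single place came from different genes. Of the 69 at 1 or more, 9 had 1 place, in 8 genes on 7 chromosomes. The first 3 sequences shown are among these 9, and the others are well-read UCUG members below 1. Capitals mark the 4 shared first bases.
Gm18609, antisense, chr6:128187681-128187706, minus strand: TCTGaatccgaacagcaccaactgta
1700001L05Rik, chr15:83357490-83357516, minus strand: TCTGatgtgatgtattaaatccctagg
Gm21269, chr7:73822116-73822141, plus strand: TCTGaattgcagacttggctgttgat
1700008K24Rik, chr17:49112695-49112720, minus strand: TCTGatctgatgtgtttctagcctgg
Gm49794, chr17:27358249-27358274, plus strand: TCTGacatgccttactgcttggccct

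A member from Abl2, the gene of a tyrosine kinase, also among the 9, had the highest ratio of all members, with 122 reads in the KO-named table, against 40 in the het-named table. Its ratio was 3.52, with an exact interval of 2.44 to 5.17. The Gm18609 sequence had 405 and 172 reads, ratio 2.72 (2.27 to 3.27), and the 1700001L05Rik sequence 164 and 77 reads, ratio 2.46 (1.86 to 3.27). These intervals cover counting error only and not the choice of the sequences for their high ratios. The Gm21269 sequence had 153 and 77 reads, log2 1.19. Not all UCUG members were this high: the 1700008K24Rik sequence had 590 and 449 reads, log2 0.60, and the Gm49794 sequence 486 and 459, at a log2 ratio of 0.29. The most-read UCUG member that matched Gm21269 had 291 and 414 reads, log2 -0.30. The most-read UCUG member, which was unmatched, had 11475 reads in the KO-named table, against 5719 in the het-named table (log2 1.21).

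The UCUG members could be compared with reads whose sequence begins 2 nt further in. Neighbours were found by shared sequence, and whether both come from the same RNA was not tested. For 189 UCUG starts with such a neighbour of 24 to 32 nt, the median log2 ratio was 0.31 at the UCUG start and 0.17 at the shifted one, and the UCUG start was the higher in 133 (70.4%). For UCUGA the medians were 0.41 and 0.18, with 88 of 115 higher at the start. The UCUG group was picked for its high ratio in these data, so a higher UCUG start follows in part from that choice. Scaled to reads of 24 to 32 nt, 52 of the 505 UCUG members were at 1 or more and 107 of the 27557 others. Scaled to miRNA reads these counts were 35 and 36 of the same groups. Of all sequences with at least 100 reads, 0.59% and 0.286% were at 1 or more on these scales. The part of library making in the UCUG ratios was not tested.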

How the data were processed

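Both deposited tables list distinct sequences of 18 to 32 nt with raw counts of reads, per the file columns. How reads were trimmed or filtered upstream is not given in the sources used here. Members and gene lists were chosen with earlier results of these data known. Sequences with at least 10 reads were matched without mismatch to GENCODE M21 transcripts (GRCm38) with bwa 0.7.19, on both strands, and reads were shared equally over distinct places. Ratios are log2 of reads plus 0.5 per total reads of the table, KO-named over het-named, with a fold threshold of 1. Intervals are exact Clopper-Pearson binomial 95% intervals from scipy 1.17.1. Steps were tested on simulated data. As each table is 1 library, there were no replicates, no tests and no p-values. Named genes were the 10 with most member reads, up to 4 per RNA class, the highest and lowest ratio among genes with 10 members or more, and the list members. Named sequences were the most-read, the highest and the lowest in ratio, and the top one of each leading gene. Unmatched sequences are not shown, and some matched ones are not reported here. First-4-base groups, base 5, base content, partners and matched sequences past a fold were chosen after their values were seen. Alternatives were the read minimum, 27 nt alone, other totals, summed starts, distinct sequences, 1-place reads and the reads added.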

Additional observations from a re-analysis of the deposited data

How the results depend on the processing

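With a minimum of 50 reads there were 50062 members, the top 1% held 24.6% of reads, A at base 10 was 28.9%, last U 31.98%, matched reads 17.4%, the median log2 ratio 0.21, and 1790 members lay at or past 1 in size. With a minimum of 500 the same values were 5895, 12.6%, 28.8%, 31.7%, 16.2%, 0.22 and 109, and next-base U was 28.2%. At 27 nt alone they were 10186, 22.8%, 29.7%, 33.4%, 16.9%, 0.22 and 228, with next-base U at 27.2%. Counting distinct sequences once gave A at base 10 in 29.3%, last U in 31.98%, next-base U in 26.5% and a match for 18.7%, and reads with 1 place had next-base U in 28.9%. The median log2 ratio was 0.13 scaled to reads of 24 to 32 nt, -0.032 and so reversed scaled to miRNA reads, and 0.23 with equal first 20 bases summed, where 389 starts lay at or past 1. Scaling to reads of 24 to 32 nt or to miRNA reads subtracts a constant from every ratio by construction. For the other changes the cause was not tested. Partners at 10 nt were found for 3.14% of 1-place members without Gm21269, an alternative chosen after seeing the data. In all, 32 values moved by more than counting error or 1.5 times, 1 reversed and 5 did not.

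No paired analysis was possible because each table is 1 library, and for the same reason leaving out a library was not run. For members below 200 reads the median counting error of the log2 ratio was 0.25 and its SD 0.42, so single ratios there are uncertain. Members with no transcript match have no known place. Both tables are listed under 1 sample, so no difference between them is read as one between genotypes. The share of a library depends on all other RNA in it.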

Other observations

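UCUG starts were also followed outside 26 to 28 nt, at the same minimum of 100 reads. Among sequences of 29 to 31 nt, 987 began with UCUG, with a median log2 ratio (KO-named over het-named) of 0.40, and 148 (15.0%) were at 1 or more. The 42095 other U-start sequences of these lengths had 0.20 and 0.708%. The 95 of 32 nt had a median of 0.45, with 21.1% at 1 or more, against 0.15 and 0.612% for other U-start sequences of 32 nt. The 113 of 24 to 25 nt had 0.40 and 7.08%, against 0.16 and 0.597%. Of all sequences with at least 100 reads, 0.89% were at 1 or more. At 21 to 23 nt, 63 UCUG sequences had a median of 0.03 and other U-start sequences 0.03. At 18 to 20 nt, 42 had -0.998 and the others -1.12. These groups were chosen after their values were seen, and no test was made.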
